A study of Anthurium andraeanum with 18 samples.

Results

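The genes described here are 5 entries of a de novo leaf transcriptome of Anthurium andraeanum, an ornamental aroid: 4 heat shock transcription factors and a heat shock factor-binding protein, of 158,487 assembled genes in all. By their identifiers they are HSFB2A (TRINITY_DN39789_c1_g1), HSFA5 (TRINITY_DN45898_c0_g4), HSFA3 (TRINITY_DN52649_c2_g1), HSFC2A (TRINITY_DN59997_c1_g1) and the binding protein (TRINITY_DN38236_c1_g2), and the names come from the descriptions the authors attached to each entry. They were chosen on measured values. From the 24 entries described as heat shock factors or their binding protein, each of the 4 comparisons of heated with control plants gave the 2 called entries with the smallest adjusted p, provided that the libraries of the groups did not overlap. Ken at 38 gave HSFB2A and the binding protein, Ken at 40 gave HSFB2A and HSFA5, MH at 38 gave HSFB2A and HSFA3, and MH at 40 gave HSFC2A and HSFB2A. The next entries in order were HSFA5 (ranked by 9.18e-06, after 8.77e-06 for the binding protein) in Ken at 38, HSFC2A (3.32e-08, after 1.82e-09 for HSFA5) in Ken at 40, the binding protein (4.7e-05, after 4.57e-06 for HSFA3) in MH at 38, and an HSFA1A entry (1.25e-08, after 9.13e-09 for HSFB2A) in MH at 40. A difference is therefore tested only where none of its libraries entered a comparison that chose the gene. All other differences of a chosen gene are descriptions with no test, which leaves HSFB2A with no test at all.

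The study measured leaf RNA of full-flowering plants of materials labelled Ken and MH, names that the labels do not explain. Control plants were kept at 25 °C throughout. Heated plants had 3 days at 25 °C, then 3 days at 38 °C by day and 33 °C by night (called 38 here), and then 3 days at 40 °C by day and 35 °C by night (called 40), so the plants sampled at 40 had also passed through 38. Each material thus has a control, a 38 and a 40 group, and each of the 6 groups had 3 libraries labelled as biological replicates. The labels do not say that these came from separate plants or when the controls were sampled, so p-values measure the spread between these libraries, which may be technical.

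Heat shock factors are transcription factors that bind heat shock elements in promoters of chaperone genes. In plants, class A factors carry activation motifs and act mainly as activators, class B factors lack them and several act as repressors, and class C factors form a smaller class without the usual activation motif. In Arabidopsis and tomato the HSFA1 factors start the response, HSFA2 is made during heat and prolongs it, and heat shock factor-binding protein associates with factors through a coiled coil and holds the response down.

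Libraries held 15,845,190 to 22,867,268 estimated counts. In a principal component analysis MH 38 replicate 3 stood apart from the other MH 38 libraries, at 4.0 on the first axis (47.7% of the variance) against 210 and 240. Leaf marker transcripts were lower with heat. The summed level of 42 leaf photosynthesis entries (light-harvesting proteins, the Rubisco small chain and Rubisco activase) ran from 92200 to 107000 TPM (the transcript level scaled by gene length and by library) in Ken control libraries. It had dropped to between 15200 and 18400 TPM by Ken 38 and to between 1160 and 1600 by Ken 40. For MH the control range was 132000 to 151000 TPM, the range at 38 was 1850 to 29200 and the range at 40 was 311 to 714, and between 7 and 17 of the 42 entries were at 0 throughout a group. In bulk leaf RNA, fewer cells of a type and less RNA per cell cannot be told apart, and the part of this loss in the results below was not tested. Summed markers of xylem (17 entries), pollen (5) and pigment (6) were below their controls in every heated group, and 4 animal entries summed to 44.9 to 78.8 TPM in all libraries.

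Levels are given in TPM, which the authors scaled by length and which is used here to compare genes. The gene lengths given here do not account for that scaling in full. In Ken control replicate 3, HSFC2A (1413 bases) had 64.9 TPM from 925 counts. HSFB2A (1397 bases) had 1.01 TPM from 36 counts in that library. Comparisons of levels between genes, shares and ratios rest on that scaling, which was not tested. Differences are log2 changes ± SE from edgeR's quasi-likelihood fit to all 18 libraries (n = 3 per group), and a gene is called at a Benjamini-Hochberg adjusted p below 0.05 over 70,022 tested genes. The fit uses TMM scaling factors, which were 0.684 to 0.734 in the controls and 0.959 to 1.54 in heated libraries. A fitted change of a heated group against its control therefore lies below the log2 of the TPM ratio. On the fitted scale the median heat response over all tested genes was 0.42 (Ken at 38), 0.30 (Ken at 40), 0.73 (MH at 38) and 1.03 (MH at 40). Scaling by library totals alone moved these medians to 0.97, 0.76, 1.55 and 2.02. Shares of all genes called are given below for the TMM fit only. Counts with library totals therefore show how a count moved with the scaling, not how it compares with all genes.

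**Figure D1:**
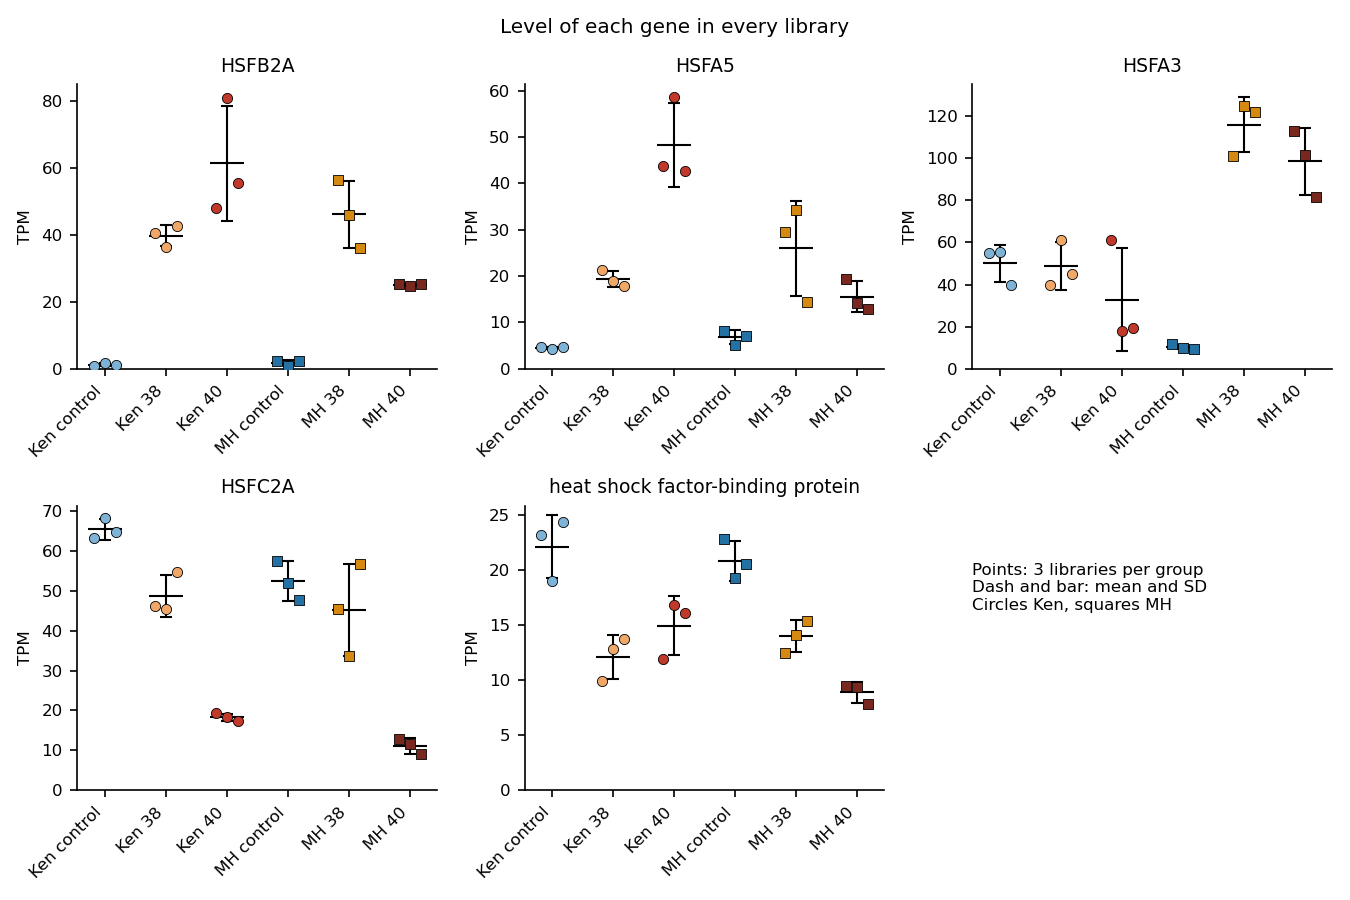
Level of the 5 genes (TPM) in each of the 18 libraries, by group, with the group mean (dash) and SD (bar), n = 3; circles are Ken and squares are MH. HSFB2A is near 0 in both controls, HSFA3 is highest in heated MH, and HSFC2A and the binding protein are highest in the controls.

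HSFA3 had low levels in MH control leaves and high levels in heated MH leaves, and no such rise in Ken. In Arabidopsis it is a heat- and drought-induced activator whose gene is switched on by DREB2 factors. The entry is 3524 bases long with 8 assembled transcripts and carries the heat shock factor DNA-binding domain in its Pfam annotation. In MH control its level was 11.5, 10.0 and 9.39 TPM. In MH 38 it was 101.04, 125 and 122 TPM, and in MH 40 it was 113, 101.44 and 81.7 TPM. All 6 heated MH libraries lay far above the 3 controls, and the heated groups overlapped each other. This is 11.3 times the control mean at 38 and 9.59 times at 40, with fitted log2 differences of 3.06 ± 0.35 and 2.86 ± 0.34, which are descriptions because MH 38 against its control chose the gene.

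The Ken libraries did not choose HSFA3. Its level there was 54.9, 55.6 and 39.9 TPM in Ken control and 39.8, 61.4 and 45.2 TPM in Ken 38, groups that overlap. Ken 40 gave 61.0, 17.8 and 19.4 TPM, with replicate 1 inside the range of the other Ken groups and the other two below all of them. The Ken 38 difference was not called (−0.36 ± 0.32, edgeR adjusted p = 0.408). At Ken 40 HSFA3 fell by 0.86 ± 0.32 (edgeR adjusted p = 0.0386), and this call was lost without Ken 40 replicate 2 (−0.58, adjusted p = 0.151), Ken 40 replicate 3 (−0.62, 0.16), Ken control replicate 1 (−0.78, 0.128) or Ken control replicate 2 (−0.82, 0.114). Without Ken 40 replicate 1 the fall was 1.59 on the log2 scale (edgeR adjusted p = 1.13e-06). The call was also lost with DESeq2 (−0.66, adjusted p = 0.102), RLE (0.112), TMM over described genes (0.156), library totals (−0.39, 0.327), no count filter (0.0745) and only the groups compared (0.284).

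At 40 HSFA3 was higher in MH than in Ken by 1.30 ± 0.32 (edgeR adjusted p = 0.00395), or by 1.99 without Ken 40 replicate 1, and this call held under every setting tried. Neither of these groups chose the gene. The other differences between materials rest on MH control or MH 38 and are descriptions. The log2 difference of MH from Ken was −2.42 ± 0.34 in the controls and 1.0 ± 0.32 at 38. The response in MH minus that in Ken was 3.42 ± 0.47 at 38 and 3.72 ± 0.47 at 40, or 4.42 at 40 without Ken 40 replicate 1. In the order of means MH 38 (116 ± 13.1 TPM) and MH 40 (98.7 ± 15.9) overlapped, the 3 Ken groups followed at 50.1 ± 8.87, 48.8 ± 11.3 and 32.7 ± 24.5 and overlapped as neighbours, and MH control (10.3 ± 1.07) was separate from all.

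The step from Ken 38 to Ken 40 was not called for HSFA3 (−0.50 ± 0.32, edgeR adjusted p = 0.259). A single library decided this, since without Ken 40 replicate 1 HSFA3 fell by 1.23 (edgeR adjusted p = 8.11e-05). The MH step, −0.20 ± 0.32, is a description.

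HSFA5 was highest at 40 in Ken and at 38 in MH. In tomato and Arabidopsis this class A factor pairs with HSFA4 factors and lowers their activity. The entry is 2145 bases long with 2 transcripts and shares an assembly component with entries described as HSFA4B and HSFB2C, so reads may have been divided among them. In Ken control it was at 4.60, 4.29 and 4.63 TPM. In Ken 38 it was at 21.3, 19.0 and 17.9 TPM, and in Ken 40 at 43.7, 58.6 and 42.6 TPM. The 3 Ken groups did not overlap, and the means were 4.30 and 10.7 times that of the control (fitted log2 differences of 1.66 ± 0.24 and 3.11 ± 0.25). These and the step of 1.46 ± 0.23 from Ken 38 to Ken 40 are descriptions, because Ken 40 against its control chose the gene.

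In MH control HSFA5 was at 8.19, 5.18 and 7.15 TPM. MH 38 gave 29.5, 34.2 and 14.5 TPM, where the low value is the replicate 3 that stood apart, and MH 40 gave 19.3, 14.3 and 13.0 TPM. Both heated MH groups lay above their control and overlapped each other. HSFA5 rose in MH 38 by 1.24 ± 0.24 (edgeR adjusted p = 0.000219), and by 1.50 without replicate 3. In MH 40 the change of 0.51 ± 0.23 was not called (edgeR adjusted p = 0.0572), although the TPM ratio was 2.27. It was called at 0.62 without MH 40 replicate 3 (adjusted p = 0.0357), at 0.63 without MH control replicate 1 (0.0425), at 0.74 with the 50-count filter (0.0139), at 0.85 with DESeq2 (0.00734) and RLE (0.0057), at 1.06 with TMM over described genes (0.000923), at 1.52 with library totals (3.01e-05) and at 0.51 with no count filter (0.0351). Against the median over all tested genes it lay at −0.52.

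From MH 38 to MH 40 HSFA5 fell by 0.73 ± 0.23 (edgeR adjusted p = 0.0231). That call was lost without MH 38 replicate 1 (adjusted p = 0.0642) or 2 (0.0872), without MH 40 replicate 2 (0.0781) or 3 (0.1), and with DESeq2 (−0.52, 0.167), RLE (0.123), TMM over described genes (0.154), library totals (0.0939), the 50-count filter (0.0642) and only the groups compared (0.0711). At 38 the materials were not called different (0.18 ± 0.23, edgeR adjusted p = 0.569). As descriptions, the log2 difference of MH from Ken was 0.60 ± 0.24 in the controls and −2.01 ± 0.24 at 40, and the response in MH minus that in Ken was −0.42 ± 0.33 at 38 and −2.60 ± 0.33 at 40. Ken 40 stood alone at the top of the order (48.3 ± 8.98 TPM). MH 38 (26.0 ± 10.3), Ken 38 (19.4 ± 1.71) and MH 40 (15.5 ± 3.35) overlapped as neighbours, and MH control (6.84 ± 1.53) lay above Ken control (4.51 ± 0.188) without overlap.

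HSFB2A was close to silent in control leaves and present in all heated ones. Class B factors of this type lack the activation motif and carry a repressor motif. The entry, 1397 bases with 1 transcript, shares an assembly component with 3 short class C entries. A second entry of the table, TRINITY_DN61463_c6_g1, is also described as HSFB2A and is treated separately. The level of TRINITY_DN39789_c1_g1 was 0.80, 1.63 and 1.01 TPM in Ken control (26 to 60 counts) and 2.21, 0.93 and 2.15 TPM in MH control (33 to 85 counts). In Ken 38 it was 40.4, 36.3 and 42.5 TPM, and in Ken 40 it was 48.0, 80.9 and 55.5 TPM. In MH 38 it was 56.3, 45.9 and 36.1 TPM, and in MH 40 it was 25.2, 24.6 and 25.2 TPM. No heated library came near a control library, and MH 40 had a spread of only 0.355 TPM (SD) around 25.0.

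All 4 comparisons with a control chose HSFB2A, so every difference of it is a description. The level was 34.7 times the control mean in Ken 38, 53.6 times in Ken 40, 26.1 times in MH 38 and 14.2 times in MH 40. The fitted log2 differences were 4.63 ± 0.30, 5.34 ± 0.31, 3.99 ± 0.29 and 3.08 ± 0.28. From 38 to 40 the values went in opposite directions in the materials, with a log2 difference of 0.71 ± 0.25 in Ken and −0.91 ± 0.25 in MH, and in neither material did the 38 and 40 libraries overlap. The Ken step was 0.45 without Ken 40 replicate 2.

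At 40 the log2 difference of HSFB2A in MH from Ken was −1.66 ± 0.26, with no overlap of libraries. It was −1.24 with TMM over described genes and −1.07 with library totals. In the controls (0.61 ± 0.29) and at 38 (−0.04 ± 0.25) the libraries of the materials overlapped. In the order of means Ken 40 (61.4 ± 17.2 TPM), MH 38 (46.1 ± 10.1) and Ken 38 (39.7 ± 3.14) overlapped as neighbours. MH 40 was separate from Ken 38 above it and from the controls below, and MH control (1.76 ± 0.722) and Ken control (1.15 ± 0.432) overlapped.

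HSFC2A was lowest at 40 in both materials. Class C factors have no agreed general role, and C2 members are known from monocots, the group to which aroids belong. The entry is 1413 bases long with 5 transcripts. In Ken control it was at 63.3, 68.4 and 64.9 TPM. Ken 38 gave 46.2, 45.4 and 54.8 TPM and Ken 40 gave 19.3, 18.3 and 17.4 TPM. The Ken groups did not overlap at any point. HSFC2A fell in Ken 38 by 0.70 ± 0.20 (edgeR adjusted p = 0.00888) and in Ken 40 by 2.16 ± 0.21 (3.32e-08). The call at 38 was lost without Ken 38 replicate 1 (−0.61, adjusted p = 0.0621), with TMM over described genes (−0.45, 0.0619) and with library totals (−0.13, 0.605). The call at 40 held under every setting tried.

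In MH control HSFC2A was at 57.7, 52.0 and 47.8 TPM. MH 38 gave 45.5, 33.6 and 56.8 TPM, which overlaps the control through replicate 3, and MH 40 gave 13.0, 11.5 and 8.98 TPM, far below both. These are log2 differences of −0.82 ± 0.20 and −2.51 ± 0.22, descriptions because MH 40 against its control chose the gene. With library totals they were −0.01 and −1.51. From Ken 38 to Ken 40 HSFC2A fell by 1.46 ± 0.21 (edgeR adjusted p = 1.81e-05), a call that held under every setting tried. The MH step of −1.70 ± 0.21 is a description.

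At 38 the materials were not called different in HSFC2A (−0.48 ± 0.20, edgeR adjusted p = 0.0693). Without MH 38 replicate 3 the difference at 38 was −0.78 and was called (edgeR adjusted p = 0.00133). As descriptions, MH differed from Ken by −0.37 ± 0.20 in the controls and by −0.72 ± 0.21 at 40, the latter −0.13 with library totals, and the response in MH minus that in Ken was −0.11 ± 0.29 at 38 and −0.35 ± 0.29 at 40. In the order of means Ken control (65.5 ± 2.59 TPM) stood alone. MH control (52.5 ± 4.95), Ken 38 (48.8 ± 5.22) and MH 38 (45.3 ± 11.6) overlapped as neighbours, and Ken 40 (18.3 ± 0.94) and MH 40 (11.1 ± 2.01) each stood apart.

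The heat shock factor-binding protein was lower in every heated group than in the controls. The entry is 1166 bases long with 14 assembled transcripts, and its name rests on a protein database match, since it has no Swiss-Prot hit. The only Pfam domain looked for, the heat shock factor DNA-binding domain, was absent from its annotation. In Ken control it was at 23.1, 19.0 and 24.3 TPM. Ken 38 gave 9.86, 12.8 and 13.7 TPM and Ken 40 gave 11.9, 16.8 and 16.1 TPM. Both heated Ken groups lay below the control and overlapped each other. The log2 differences, −1.62 ± 0.23 and −1.17 ± 0.23, and the step of 0.45 ± 0.23 from Ken 38 to Ken 40 are descriptions, because Ken 38 against its control chose the gene.

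In MH control the binding protein was at 22.8, 19.2 and 20.5 TPM. MH 38 gave 12.4, 14.1 and 15.4 TPM and MH 40 gave 9.45, 9.36 and 7.80 TPM. The 3 MH groups did not overlap. The binding protein fell in MH 38 by 1.41 ± 0.23 (edgeR adjusted p = 4.7e-05) and in MH 40 by 2.30 ± 0.24 (4.28e-08). Both calls held under every setting tried, at −0.59 and −1.29 with library totals. From MH 38 to MH 40 it fell by 0.89 ± 0.23 (edgeR adjusted p = 0.00687). That call was lost when only the libraries of these groups were fitted (−1.01, adjusted p = 0.0536). It was also lost with a replicate block on library-name numbers (−0.72, 0.0646) and with a 2-fold minimum.

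At 40 the binding protein was lower in MH than in Ken by a log2 difference of −1.18 ± 0.23 (edgeR adjusted p = 0.000294), a call that held under every setting tried, at −0.60 with library totals (0.0331). As descriptions, MH differed from Ken by −0.06 ± 0.23 in the controls and by 0.16 ± 0.23 at 38, and the response in MH minus that in Ken was 0.21 ± 0.32 at 38 and −1.13 ± 0.32 at 40. Ken control (22.1 ± 2.82 TPM) and MH control (20.8 ± 1.79) overlapped at the top of the order. Ken 40 (14.9 ± 2.68), MH 38 (14.0 ± 1.46) and Ken 38 (12.1 ± 2.0) overlapped as neighbours, and MH 40 (8.87 ± 0.928) was lowest and separate.

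Of the members that could be tested, edgeR called 1 of 2 (HSFC2A, lower) in Ken 38 against its control, where 36.2% of all tested genes were called, and 2 of 2 (HSFC2A and HSFA3, lower) in Ken 40, against 45.8%. In MH 38 against its control it was 2 of 2 (HSFA5 higher, the binding protein lower), against 47.4% of all genes, and in MH 40 it was 1 of 2 (the binding protein, lower), against 67.4%. From Ken 38 to Ken 40, 1 of 2 was called (HSFC2A, lower), where 30.5% of all genes were called, 14.3% higher and 16.2% lower. From MH 38 to MH 40, 2 of 2 were called, HSFA5 and the binding protein, both lower (15% of all genes were called lower). Between materials at 38, edgeR called 0 of 2, with 1 at an unadjusted p below 0.05 and 0 with DESeq2, where 34.7% of all genes were called (19.9% higher in MH and 14.7% lower). At 40 it called 2 of 2, HSFA3 higher and the binding protein lower in MH, where 48.5% were called (28.2% higher and 20.3% lower). With so large a share of all genes called, these counts do not set the members apart from the transcriptome.

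The rest of the list holds 19 entries, of which 18 were tested: 10 of class A, 5 of class B and 3 of class C. In Ken 38, 5 rose and 2 fell (20.3% and 15.9% of all tested genes did), and in Ken 40, 8 rose and 1 fell (25.1% and 20.7%). In MH 38, 7 rose and 1 fell (30.1% and 17.3%), and in MH 40, 8 rose and 3 fell (42.7% and 24.6%). The entries with the smallest p had been taken out as members. The median log2 change of the 18 was 0.67, 0.50, 0.54 and 0.52 in these comparisons, against 0.42, 0.30, 0.73 and 1.03 over all tested genes. Between the controls 3 were higher and 6 lower in MH (21.8% of all genes were called, 10.1% higher and 11.7% lower). The response differed between materials for 3 at 38, 2 higher and 1 lower in MH, where 10.8% of all genes were called (6.07% and 4.78%). With library totals 4 were higher. At 40 the response differed for 9 of the 18, 5 higher and 4 lower in MH, where 21.4% of all genes were called (10.3% and 11.1%). Scaled by library totals, 10 rose and 1 fell in Ken 38, 11 and 1 in Ken 40, 14 and 1 in MH 38, and 12 and 1 in MH 40. These counts have no share of all genes beside them. In MH 40 all 10 other class A entries were called by edgeR, 7 higher and 3 lower. Of the 5 other class B entries edgeR called 0 in Ken 38, MH 38 and MH 40, with 1, 0 and 0 at an unadjusted p below 0.05. DESeq2 called 2, 1 and 0 of these class B entries and library totals 2, 3 and 3.

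**Figure D2:**
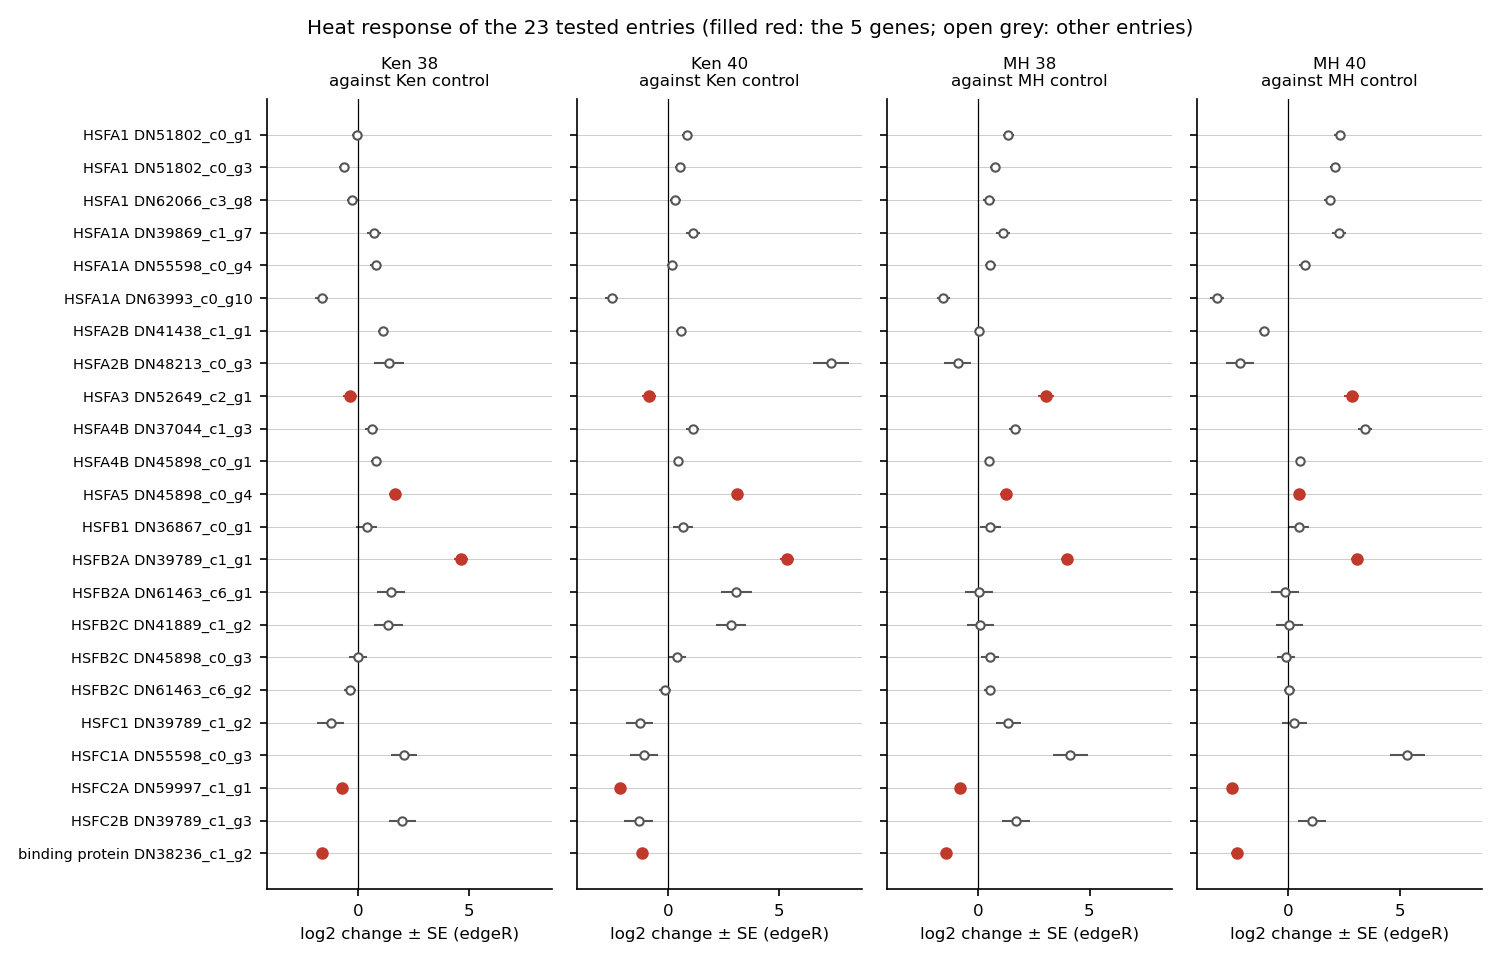
Fitted log2 change ± SE (edgeR) against the control of the same material for the 23 tested heat shock factor entries, with the 5 members as filled red points and the others open. HSFB2A is far to the right in all 4 panels, HSFA3 in the MH panels, and HSFC2A and the binding protein are to the left in all 4.

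Among class A, 3 HSFA1 entries, 2 HSFA1A entries and 2 HSFA4B entries rose in MH 40. HSFA1 TRINITY_DN51802_c0_g1, of the type that starts the heat response in Arabidopsis, was at 8.42, 7.54 and 6.89 TPM in MH control, 26.9, 35.4 and 17.2 in MH 38 and 37.9, 50.9 and 53.2 in MH 40. It rose by 2.32 ± 0.25 in MH 40 (edgeR adjusted p = 5.43e-08) and by 0.85 ± 0.23 in Ken 40 (0.00481). HSFA4B TRINITY_DN37044_c1_g3 rose by 3.46 ± 0.31 in MH 40 (edgeR adjusted p = 1.67e-08) and by 1.12 ± 0.29 in Ken 40 (0.00323). The others that rose in MH 40 were HSFA1 TRINITY_DN51802_c0_g3 (2.11), HSFA1 TRINITY_DN62066_c3_g8 (1.86), HSFA1A TRINITY_DN39869_c1_g7 (2.28), HSFA1A TRINITY_DN55598_c0_g4 (0.75) and HSFA4B TRINITY_DN45898_c0_g1 (0.54). TRINITY_DN51802_c0_g3 shares an assembly component with TRINITY_DN51802_c0_g1, so reads may have been divided between them. Its Pfam annotation lacks the heat shock factor DNA-binding domain. HSFA1A TRINITY_DN63993_c0_g10 went the other way in all 4 comparisons, from −1.55 in MH 38 to −3.18 in MH 40. The rises of TRINITY_DN55598_c0_g4 and TRINITY_DN45898_c0_g1 in MH 40 lay below the median of 1.03 over all tested genes.

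The HSFA2B entries carried much of the factor transcript. HSFA2 factors are the heat-made activators that sustain the response. TRINITY_DN41438_c1_g1 was the most abundant factor in Ken control (117 ± 11.6 TPM), rose in Ken 38 to 343 ± 25.2 TPM (log2 change 1.11 ± 0.21, edgeR adjusted p = 0.000207), and fell in MH 40 to 122 ± 10.1 TPM from 178 ± 63.9 (−1.09 ± 0.21, 0.000119; with library totals −0.08, 0.737). TRINITY_DN48213_c0_g3 was at 1.18, 1.43 and 0.64 TPM in Ken control libraries, 1.55, 2.36 and 4.68 at 38, and 139, 190 and 145 at 40. In MH it was already at 71.9, 89.7 and 243 TPM in the controls, then 117, 146 and 43.3 in MH 38 and 78.8, 23.3 and 19.7 in MH 40. Its change of 7.31 ± 0.80 in Ken 40 was called higher (edgeR adjusted p = 9.88e-06) and that of −2.16 ± 0.62 in MH 40 lower (0.00804), the latter not with library totals (−1.13, 0.122).

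In class B, HSFB2A TRINITY_DN61463_c6_g1 and HSFB2C TRINITY_DN41889_c1_g2 ran nearly parallel over the libraries. TRINITY_DN61463_c6_g1 was at 60.4, 8.48 and 31.6 TPM in MH control and 89.6, 78.9 and 20.7 TPM in MH 38, which overlap widely, in contrast to the member of the same name. It rose in Ken 40 by 3.07 ± 0.68 (edgeR adjusted p = 0.00251), and TRINITY_DN41889_c1_g2 rose by 2.82 ± 0.66 (0.00343). In class C, HSFC2B TRINITY_DN39789_c1_g3, which shares an assembly component with HSFB2A, rose in Ken 38 to 14.9 ± 6.22 TPM from 3.18 ± 1.63 (log2 change 1.99 ± 0.60, edgeR adjusted p = 0.0116) and fell to 1.31 ± 1.62 TPM in Ken 40 (step −3.31 ± 0.64, 0.000493).

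The summed level of the 23 factor entries went from 337 ± 22.2 TPM in control plants of Ken to 685 ± 32.5 at 38 and 795 ± 78.3 at 40. In MH it was 507 ± 146 TPM in the control, 866 ± 123 in MH 38 and 666 ± 91.3 in MH 40. The summed levels of the MH control and MH 40 libraries overlapped. These sums are in TPM, on which heated groups stand higher against their controls than on the fitted scale. The sums and the shares also rest on the length scaling of the TPM values, which was not tested. Class A made up 71.1% to 75.3% of the sum in every group, class B moved from 7.74% ± 0.214 to 14.7% ± 0.367 and 25.1% ± 5.59 over the Ken groups, and class C moved from 21.0% ± 1.25 to 9.98% ± 1.21 and 2.59% ± 0.0475. In MH, class B was 14.8% ± 8.30, 21.8% ± 8.28 and 23.3% ± 4.03, and class C was 11.7% ± 4.01, 7.05% ± 2.21 and 3.48% ± 0.651. HSFC2A was the main class C entry in the controls, with 19.5% ± 1.69 of all factor TPM in Ken and 11.1% ± 3.84 in MH, and 2.32% ± 0.204 and 1.67% ± 0.158 at 40. HSFA3 changed place between materials, with 14.8% ± 2.04 of factor TPM in Ken control and 4.17% ± 3.18 in Ken 40, against 2.17% ± 0.718 in MH control and 14.8% ± 1.20 in MH 40. HSFB2A went from 0.343% ± 0.134 to 7.67% ± 1.52 in Ken 40 and from 0.338% ± 0.0579 to 3.79% ± 0.478 in MH 40. These shares are descriptions of values that chose 4 of the entries.

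**Figure D3:**
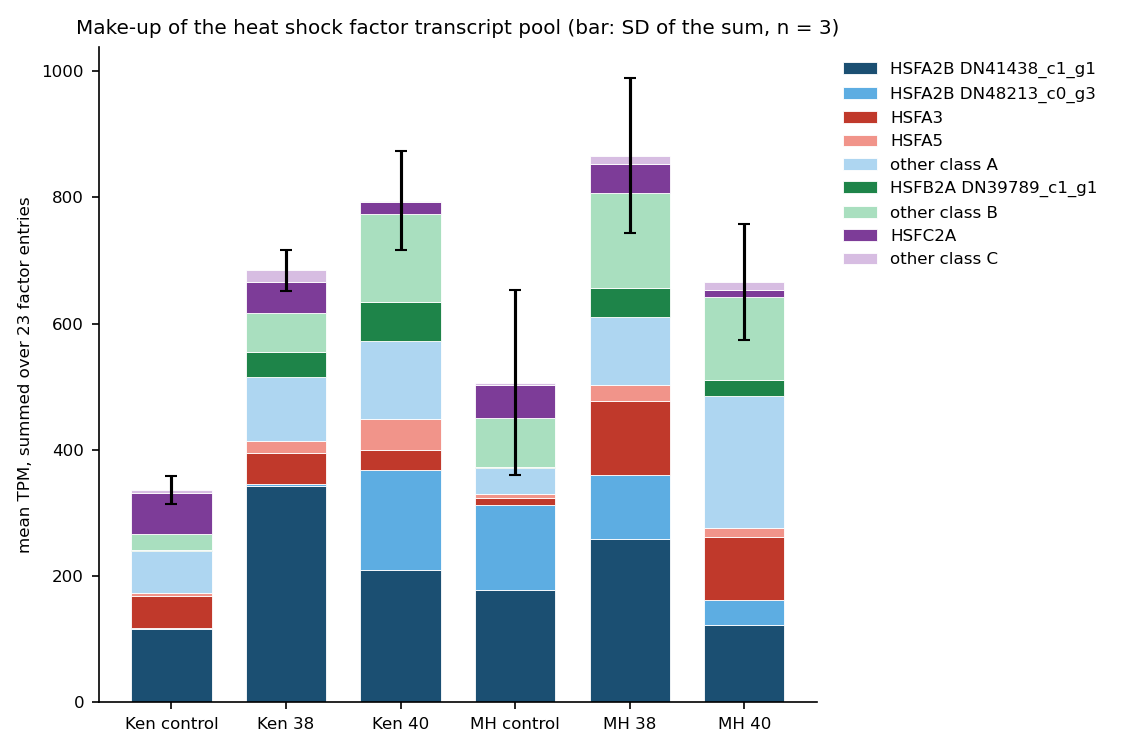
Mean TPM of the 23 heat shock factor entries stacked by entry or class for each group, with the SD of the sum as the bar (n = 3). The mean summed level is 337 TPM in Ken control and 507 in MH control. It is higher in every heated group, although the MH control and MH 40 libraries overlap. The purple HSFC2A block is thin at 40, and the dark red HSFA3 block is thick in heated MH.

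The summed factor TPM was divided by the TPM of the binding protein. This ratio was 13.0 to 17.6 for the Ken control, 52.4 to 66.1 for Ken 38 and 45.1 to 65.7 for Ken 40. In MH it was 17.6 to 29.7 in the control, 47.2 to 75.4 in MH 38 and 67.5 to 81.5 in MH 40. Heated and control libraries did not overlap in either material, the 2 heated Ken groups overlapped, and so did the heated MH groups. The ratio is of transcripts and rests on the length scaling of the TPM values. Of the 23 factor entries, 4 were chosen for their heat response, and so was the binding protein.

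**Figure D4:**
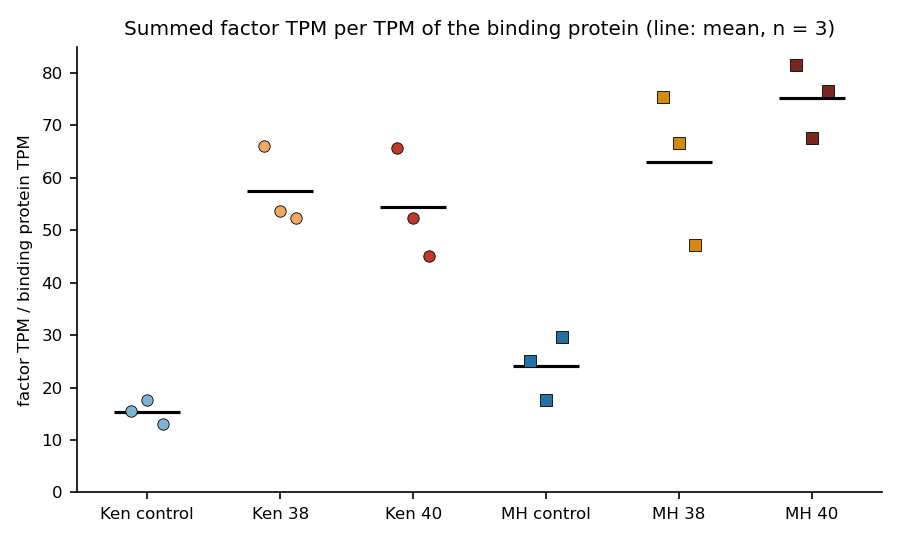
Summed TPM of the 23 factor entries divided by the TPM of the binding protein in each of the 18 libraries, with the group mean as a line (n = 3). The group means are 15.4 in Ken control and 24.2 in MH control, and 54.4 to 75.2 in the heated groups.

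Of the genes known to act around heat shock factors, 67 entries of a list by description were tested. In Ken 38, 25 rose and 16 fell (20.3% and 15.9% of all tested genes did), and in Ken 40, 32 rose and 10 fell (25.1% and 20.7%). In MH 38, 22 rose and 16 fell (30.1% and 17.3%), and in MH 40, 11 rose and 26 fell (42.7% and 24.6%). The medians were 0.47, 0.86, 0.30 and −0.36. This split depended on the scaling: with library totals 34 rose and 7 fell in Ken 38, 42 and 6 in Ken 40, 37 and 5 in MH 38, and 27 and 9 in MH 40. No share of all genes is given for library totals. From 38 to 40 edgeR called 21 higher and 0 lower in Ken (14.3% and 16.2% of all genes), with 0 lower at an unadjusted p below 0.05 and 0 with DESeq2. In MH it called 0 higher and 18 lower (11.2% and 15% of all genes), with 3 higher at an unadjusted p below 0.05 and 3 with DESeq2, and with library totals 2 rose and 13 fell. The 2 DREB2 entries, upstream activators of HSFA3 in Arabidopsis, rose in all 4 comparisons. The DREB2B entry TRINITY_DN38333_c2_g3 went in Ken from 6.96 ± 0.80 TPM to 75.1 ± 4.56 at 38 and 59.3 ± 11.1 at 40, and was at 0.383 ± 0.0321 in MH control, 51.4 ± 21.8 in MH 38 and 17.1 ± 1.73 in MH 40. Like HSFA3 by its values, it was lower in MH than in Ken controls (log2 difference −4.11, edgeR adjusted p = 5.41e-10) and had the larger response in MH at 40 (difference of responses 2.03, 0.00016). It also rose in Ken (2.96 ± 0.24 in Ken 38, edgeR adjusted p = 1.92e-09) and was lower in MH than in Ken at 40 (−2.08, 2.14e-07). The other DREB2 entry was also called lower in MH control, but its difference of responses at 40 was not called.

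The leading entries of 3 chaperone groups, which are partners or targets of the factors, rose in both heated Ken groups. HSP90 proteins bind and restrain heat shock factors, and the most abundant entry, HSP83A TRINITY_DN57441_c0_g2, went in Ken from 65.5 ± 10.4 TPM to 526 ± 30.1 at 38 and 1530 ± 79.8 at 40, against 272 ± 129, 1050 ± 641 and 249 ± 151 in MH. It rose by 4.23 ± 0.55 in Ken 40 (edgeR adjusted p = 4.58e-05), while its MH 40 change of −1.04 ± 0.49 was not called (0.0759), and the difference of responses was −5.27 (0.000234). The HSP90 subgroup of 28 tested entries, which by its wording also takes in organellar forms and co-chaperones, had 10 higher and 6 lower in Ken 38, 13 and 5 in Ken 40, 10 and 7 in MH 38, and 7 and 10 in MH 40. The TMM shares of all genes given above for these comparisons apply to these counts. With library totals, for which no share of all genes is given, the counts were 18 and 2 in Ken 40 and 14 and 2 in MH 40. CLPB1 TRINITY_DN63594_c0_g2, the disaggregase HSP101, rose from 30.8 ± 5.53 to 932 ± 157 TPM in Ken 40 (4.51 ± 0.51, edgeR adjusted p = 1.2e-05) and also in Ken 38 (289 ± 16.2 TPM, 2.65 ± 0.47, 0.000676). In MH it stood at 225 ± 121 TPM in the control, 482 ± 161 at 38 (not called, 0.30) and 265 ± 161 at 40 (not called, −0.62, or 0.41 with library totals). The 3 tested HSP101 entries did not move as 1. In each heated Ken group 2 rose and 1 fell, and in each heated MH group 1 rose and 1 fell. The TMM shares of all genes given above apply to these counts too. Of 22 class I and II small heat shock proteins, which hold unfolding proteins, edgeR called 13 higher and 0 lower in Ken 40 (0 lower at an unadjusted p below 0.05 and 0 with DESeq2), 11 rose and 3 fell in Ken 38, 7 rose and 2 fell in MH 38, and 1 rose and 6 fell in MH 40, where 7 rose and 3 fell with library totals. By the test of the difference of responses at 40, 16 of the 22 were lower in MH and 0 higher by edgeR (13 and 0 with library totals), with 0 higher at an unadjusted p below 0.05 and 0 with DESeq2, where 11.1% of all tested genes were lower. That difference is measured from the controls. There 10 of the 22 were already higher in MH than in Ken and 3 lower (10.1% and 11.7% of all tested genes). The most abundant, TRINITY_DN39874_c0_g1, was at 355 ± 81.6 TPM in Ken control leaves, 7830 ± 420.0 at 38 and 12000 ± 1650 at 40. In MH it was at 483 ± 350 TPM in the control, 3110 ± 1440 at 38 (2.02 ± 0.58, edgeR adjusted p = 0.0126) and 1260 ± 1010 at 40 (0.70 ± 0.56, 0.279).

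The remaining leaders of that list moved less, and several calls depended on the scaling. APX1 TRINITY_DN59189_c0_g1, a cytosolic ascorbate peroxidase, fell in all 4 comparisons and went from 1070 ± 1.61 TPM in Ken control to 318 ± 47.0 in Ken 38. HSA32 TRINITY_DN33669_c1_g1, which extends acquired heat tolerance in Arabidopsis, rose in Ken 40 (0.79 ± 0.23, edgeR adjusted p = 0.00786) and fell in MH 40 (−1.11, 0.000327), where library totals gave −0.11 (0.702). GOLS1 TRINITY_DN48662_c0_g3, a galactinol synthase, rose in MH 38 (2.09 ± 0.28, edgeR adjusted p = 7e-06) and Ken 40 (0.86 ± 0.27, 0.0127). Most of its subgroup went the other way. Of the 5 tested galactinol synthase entries, 3 fell in each of the 4 comparisons (15.9% to 24.6% of all tested genes did). The only rises were 1 in Ken 40 and 2 in MH 38. FKBP65 TRINITY_DN42995_c0_g1, whose Arabidopsis relative binds HSFA2, fell in MH 40 (−1.04, edgeR adjusted p = 0.00102), where library totals gave −0.04 (0.9). For MBF1A TRINITY_DN48246_c0_g3, a coactivator of the heat response, the MH 40 value was −0.40 with TMM and 0.60 with library totals, and for the SUMO ligase SIZ1 TRINITY_DN62810_c0_g1 it was −0.40 and 0.61, so neither has a direction here.

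For each member the 3 described genes with the highest Pearson correlation of log2 count per library size (CPM) over the 18 libraries were taken from 29,120 candidates. The correlations are descriptions over libraries that share the 6 groups. HSFB2A was most like an aspartic proteinase (TRINITY_DN45876_c1_g1, r = 0.973), CYP88A1 (TRINITY_DN39123_c2_g2, 0.968) and an uncharacterised entry (TRINITY_DN52613_c2_g1, 0.967). The aspartic proteinase was at 9.30 and 14.9 TPM in the Ken and MH controls and 78.3 to 112 TPM in heated groups. HSFA5 was most like FREE1 (TRINITY_DN52982_c0_g1, r = 0.976), PAO2, a probable polyamine oxidase (TRINITY_DN58202_c1_g1, 0.968), and an F-box protein (TRINITY_DN57888_c1_g3, 0.963). PAO2 had its highest means in Ken 40 (116 TPM) and MH 38 (71.6 TPM), the groups in which HSFA5 was highest too.

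HSFA3 had the weakest likeness, to a pentatricopeptide repeat protein (TRINITY_DN57907_c0_g1, r = 0.884), an AAA-type ATPase (TRINITY_DN60514_c0_g1, 0.883) and HS1 (TRINITY_DN38243_c3_g1, 0.880). HSFC2A was most like DYW1 (TRINITY_DN51269_c0_g6, r = 0.985), the blue-light receptor PHOT2 (TRINITY_DN63633_c0_g1, 0.984) and a chloroplast peroxiredoxin (TRINITY_DN47226_c0_g3, 0.983). PHOT2 went from 164 TPM in Ken control to 14.7 in Ken 40 and from 138 in MH control to 8.89 in MH 40. The binding protein was most like PPA6, a chloroplast pyrophosphatase (TRINITY_DN46302_c1_g2, r = 0.992), an uncharacterised entry (TRINITY_DN52536_c2_g1, 0.983) and the ribosomal protein RPL23A (TRINITY_DN45960_c0_g1, 0.983). With TPM in place of CPM, 0 or 1 of the 3 genes remained for every member, so the names depend on the scale.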

How the data were processed

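RNA of 18 leaf libraries in 6 groups of 3 was measured. RNA was isolated with Trizol and sequenced on an Illumina instrument, per the labels' protocols, and per the submitters' processing notes they used cutadapt 1.9. Gene identifiers have the form that Trinity writes, and for assembly settings, quantification tool and strandedness the sources used here name nothing. The authors deposited 1 table of 158,487 genes with an estimated count per gene and library, not normalised, and a TPM value, read as such because the columns sum to 967,894 to 991,008 per library. Gene lengths and descriptions were deposited with it, and 39,786 genes carry a description. Without a genome, reads shared between fragments, alleles or paralogs could not be separated. Libraries were matched to titles by library name, and in MH the numbers in those names do not follow the titles' replicate numbers.

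The test was edgeR 4.0.16 (R 4.3.3) on the deposited estimated counts, each rounded to an integer (filterByExpr with min.count 10 and min.total.count 15, TMM scaling, a robust quasi-likelihood fit of 6 group means with 12 residual degrees of freedom, common biological coefficient of variation 0.389). Of 70,022 tested genes, 29,143 were described. All 11 comparisons came from this fit, with Benjamini-Hochberg adjustment over all tested genes. For a member, steps, differences between materials and differences of responses were planned as tests, but are given as descriptions where a group of the comparison that chose it takes part. The procedure was tested on simulated data. Alternatives were DESeq2 1.42.0, RLE size factors, TMM of described genes, library totals, count filters of 50 and none, only the groups compared, replicate blocks, stricter thresholds and each library left out. Depth limits precision mainly for HSFB2A in the controls.

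The members and gene lists were chosen with earlier results of these data known. Named besides the members were other heat shock factor entries called in a heated-against-control comparison with a mean of at least 5 TPM in their highest group, the highest-TPM entry of each subgroup of the pathway list, and the 3 genes most like each member. Sequences were not used here.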

Additional observations from a re-analysis of the deposited data

Results flagged for a closer look

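Listed here are the named heat shock factor entries whose heat responses differed between materials. The test was of the difference itself (the log2 response in MH minus that in Ken, edgeR's quasi-likelihood test adjusted over all tested genes, n = 3 per group). Not listed is 1 class C entry below the level for naming, which was higher in MH at 40. At 38, 10.8% of all tested genes had such a difference, and at 40, 21.4%. The members are not among them, because the control libraries that chose the members enter each such difference.

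Among the other entries, HSFA1 TRINITY_DN51802_c0_g1 had a larger response in MH at 38 (1.39) and at 40 (1.47). HSFA1 TRINITY_DN51802_c0_g3, of the same assembly component, did too (1.37 and 1.58). At 40 the response was also larger in MH for HSFA1 TRINITY_DN62066_c3_g8 (1.51) and HSFA4B TRINITY_DN37044_c1_g3 (2.33). All of these class A entries had lower levels in MH control than in Ken control, by −1.62, −1.80, −1.45 and −1.09 on the log2 scale.

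The response was smaller in MH for HSFA2B TRINITY_DN41438_c1_g1 at 38 (−1.05, with library totals −0.80 and an adjusted p of 0.0616) and at 40 (−1.66). At 40 it was smaller for HSFB2C TRINITY_DN41889_c1_g2 (−2.77) and HSFB2A TRINITY_DN61463_c6_g1 (−3.20), both of which vary widely among the MH control libraries and lose the call with library totals (adjusted p 0.101 and 0.0579). HSFA2B TRINITY_DN48213_c0_g3 differed most of the named entries, by −9.47 at 40, with 0.64 to 1.43 TPM in Ken control and 71.9 to 243 in MH control. No explanation of these differences was tested.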

How the results depend on the processing

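Values were recomputed with each library left out and under the other settings. Where a count or sign changed below, the cause was not tested.

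Members called, of those tested, changed as follows. In Ken 38 (1) it was 0 with TMM of described genes, library totals or a 2-fold minimum. In Ken 40 (2) it was 1 with DESeq2, RLE, TMM of described genes, library totals, no count filter, only the groups compared, an adjusted p below 0.01 or a 2-fold minimum. In MH 40 (1) it was 2 with the 50-count filter, DESeq2, RLE, TMM of described genes, library totals or no count filter. From MH 38 to MH 40 (2) it was 1 with the 50-count filter, DESeq2, RLE, TMM of described genes, library totals or an adjusted p below 0.01, and 0 with only the groups compared or a 2-fold minimum. With a library left out the counts ran from 0 to 1 (Ken 38), 1 to 2 (Ken 40), 2 to 2 (MH 38), 1 to 2 (MH 40), 1 to 2 (Ken step), 1 to 2 (MH step), and 0 to 1 and 2 to 2 between materials at 38 and at 40.

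Other heat shock factor entries called in Ken 38 (7) were 11 with library totals, 12 with only the groups compared, 4 with an adjusted p below 0.01 and 4 with a 2-fold minimum. In MH 38 (8) they were 15 with library totals. In the Ken step (6) they were 10 with the 50-count filter and 12 with only the groups compared. Between materials they were 5 in the controls (from 9) and 5 at 40 (from 9) with an adjusted p below 0.01. At 38 (5) they were 3 with RLE, TMM of described genes, library totals, only the groups compared or an adjusted p below 0.01. With a library left out the ranges were 5 to 6 (Ken 38), 6 to 10 (Ken 40), 7 to 9 (MH 38), 9 to 12 (MH 40), 5 to 6 (Ken step), 6 to 9 (MH step), and 6 to 8, 3 to 9 and 6 to 8 between materials, where the 9 was without MH 38 replicate 3. At 40 between materials 4 were higher and 5 lower in MH, against 8 and 3 with library totals.

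Uncalled values and descriptions that changed sign were these. HSFB2A between materials at 38 (−0.04) was 0.03 with the 50-count filter, 0.15 with DESeq2 and RLE, 0.12 with TMM of described genes, 0.28 with library totals, 0.01 with no filter, 0.08 with only the groups compared and −0.19 to 0.06 with a library left out. HSFA5 between materials at 38 was −0.01 to 0.44 with a library left out. HSFA3 in Ken 38 was 0.19 with library totals, and its MH step was 0.04 with DESeq2 and RLE and 0.07 with TMM of described genes. The HSFC2A difference of responses was 0.12 at 38 and 0.18 at 40 with library totals, and −0.41 to 0.11 at 38 with a library left out. The binding protein between controls was 0.06 with DESeq2 and RLE, 0.07 with TMM of described genes, 0.00 with library totals, 0.04 with only the groups compared and −0.16 to 0.06 with a library left out, and at 38 it was −0.02 to 0.25.

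Same-numbered libraries did not deviate together (correlations of −0.107 to 0.079 for title numbers), so replicate numbers did not pair the libraries. A replicate block on title numbers changed no call of a tested member. A replicate block on library-name numbers gave −0.09 for HSFA5 in MH 40, 1 called member in the MH step (the binding protein lost it, −0.72, adjusted p 0.0646) and 1 at 38 between materials (HSFC2A, −0.64, 0.036), and 8 called other entries at 38. Low counts limit precision most for HSFB2A in the controls.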
